A study of Mus musculus with 6 samples.

Results

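The genes described here are 9 members of the transforming growth factor beta (TGF-beta) system. They are the ligand genes Tgfb1, Tgfb2 and Tgfb3, the receptor genes Tgfbr1 and Tgfbr2, the feedback genes Smad7 and Pmepa1, and the response genes Acta2 and Tgfbi. They were taken by symbol from a table of 45513 gene identifiers, each matched 1 identifier, and all 9 passed the filter on low counts. Messenger RNA was sequenced from keratinocytes isolated from the skin of 3 knockout and 3 control mice on a C57BL/6 background. The knockout mice were Lama3flox/flox/K14-CreERT, with loxP sites around exons 50 to 53 of Lama3, which encodes the alpha chain of laminin 332. The design text gives the controls as Lama3wt/flox / K14-CreERT, so they carry the same Cre and a floxed allele, while their genotype label reads wild type. Tamoxifen chow (400 mg of tamoxifen citrate per kg) activated the Cre. K14-CreERT is driven by the keratin 14 promoter, which is active in basal keratinocytes, so deletion is confined by design to cells that use this promoter and their descendants. Age and length of treatment are not given in the sources used here.

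TGF-beta ligands are secreted in a latent form, bound to their own propeptide and to latent TGF-beta binding proteins, and are released by integrins and proteases. The active dimer binds the type II receptor, which recruits and phosphorylates the type I receptor, and this in turn phosphorylates Smad2 and Smad3, which enter the nucleus with Smad4. In epidermis the pathway is known for restraining keratinocyte division, and in skin as a whole for wound repair, matrix production and the cycling of hair follicles. Smad7 and Pmepa1 are induced by the signal and dampen it.

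Total counts lay between 20126395 and 28473479 per library. Lama3 was lower in every knockout (79.2 to 98.9 CPM, counts scaled to library size) than in every control (114 to 142 CPM), and the difference was called (edgeR, adjusted p = 0.0215). It was not called once control 1, control 2 or knockout 1 was omitted (adjusted p from 0.0551 to 0.0620 in edgeR). The keratinocyte label fitted the markers, with Krt5 at 6313 to 9664 CPM in all libraries. The sexes were unequal, with 1 female among the controls (control 1) and 2 among the knockouts (knockouts 1 and 2) as read from Xist and Ddx3y. Knockout 3 was the only male knockout, so sex and any other difference of knockout 3 from knockouts 1 and 2 cannot be told apart. Other cell types moved with the groups: 7 of 7 T cell markers, 5 of 5 melanocyte markers and 8 of 9 hair shaft and inner root sheath markers fell in the knockouts. Over all genes tested 18.8% were called lower. In bulk RNA, fewer cells of a type and less RNA per cell cannot be told apart.

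Of the 9 genes 5 rose in the knockouts, none fell and 4 were not called, where a gene is called when edgeR's adjusted p is under 0.05, the adjustment covering the 15513 genes tested. Over all genes tested 36.2% were called, 17.4% higher and 18.8% lower. The genes that rose were Acta2, Pmepa1, Tgfbr2, Tgfb3 and Tgfbr1. The median log2 fold change of the 9 was 0.65, beside -0.02 over all genes tested. In 6 of the 9 every knockout library lay above every control, as in 25.2% of all genes tested (51.7% were free of overlap in either direction). The number that rose was 4 to 6 with each library left out in turn, 4 with upper-quartile factors and 7 with DESeq2.

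**Figure D1:**
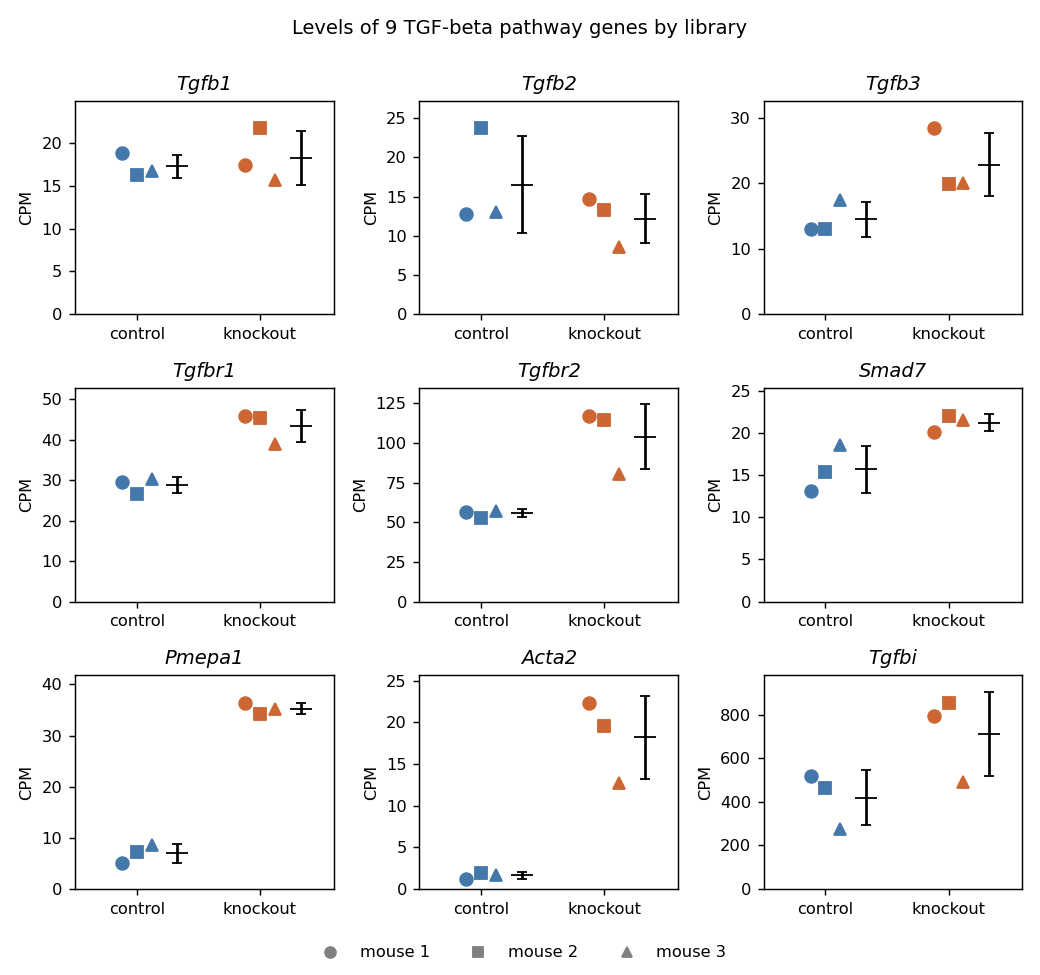
Level of each of the 9 genes (CPM, vertical axis from 0) in the 3 control and 3 knockout libraries. Marker shapes show mouse 1, 2 and 3 of each group, for which the labels give no pairing by number. The mean with SD is in black beside the points. Acta2 and Pmepa1 are clear of the controls by several fold, Tgfbr1, Tgfbr2, Tgfb3 and Smad7 by less, and the groups overlap for Tgfb1, Tgfb2 and Tgfbi.

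Among the ligands, Tgfb3 rose while Tgfb1 and Tgfb2 were not called. Tgfb3 (ENSMUSG00000021253, GRCm38 chromosome 12, 86056745 to 86079041, minus strand) encodes the isoform known for its role in palate fusion and in repair. Its level was 12.96, 12.96 and 17.5 CPM in controls 1, 2 and 3 and 28.4, 19.97 and 20.1 CPM in knockouts 1, 2 and 3. Every knockout was above every control, with knockout 1 the highest and control 3 the nearest to the knockouts. The log2 fold change was 0.65 (SE 0.19), a 1.57-fold rise, with an edgeR adjusted p of 0.0322. Omitting 1 library ended this call for control 1 (edgeR's adjusted p = 0.0856), control 2 (0.0787) or knockout 1 (0.0989). Nor was Tgfb3 called with upper-quartile factors (0.0764), with the replicate number as a block (0.0518) and with sex as a covariate (0.0581). Tgfb3 overlaps the opposite-strand gene Ttll5, with which it shares 0 exon bases in the annotation.

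Tgfb1 (ENSMUSG00000002603, chromosome 7, 25687002 to 25705077, plus strand) encodes the isoform made by many cell types, immune cells among them. Its values were 18.8, 16.3 and 16.7 CPM in the controls and 17.4, 21.7 and 15.6 CPM in the knockouts. The knockouts spanned the whole range of the controls, and the log2 fold change of 0.08 (SE 0.16) was not called (edgeR's adjusted p = 0.712). The sign of this value turned negative with upper-quartile factors, with sex as a covariate and without knockout 2. T cell markers, which fell in the same libraries, summed to 159 to 328 CPM in the controls and 72.4 to 81.8 CPM in the knockouts. Macrophage markers summed to 27.4 to 60.6 CPM in the controls and 40.1 to 59.8 CPM in the knockouts. Of 7 tested macrophage markers 3 rose (C1qa, C1qb and Cd14), none fell and 4 were not called. The part of either cell type in the level of Tgfb1 was not tested.

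Tgfb2 (ENSMUSG00000039239, chromosome 1, 186622792 to 186705989, minus strand) encodes the isoform known in hair follicles for driving regression and stem cell activation. Its level was 12.8, 23.7 and 13.1 CPM in the controls and 14.6, 13.3 and 8.64 CPM in the knockouts. Control 2 stood above the other libraries and knockout 3 below them, and the groups overlapped. The log2 fold change was -0.44 (SE 0.29, edgeR's adjusted p = 0.270). Hair shaft and inner root sheath markers were also highest in control 2. Without the 2 most abundant of them (Gata3, which T cells and keratinocytes also express, and Tchh), the remaining 7 summed to 63.7, 247 and 131 CPM in controls 1, 2 and 3 and to 1.27 to 1.99 CPM in the knockouts. The part of hair cells in the Tgfb2 values was not tested.

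Per kilobase of exon, the 3 ligands together amounted to 10.6 ± 0.703 CPM per kb in the controls and 12.5 ± 1.92 in the knockouts (SD, n = 3 each, 2-sided exact permutation p = 0.3). The lengths used were unions of all annotated exons, 5042 bases for Tgfb1, 5791 for Tgfb2 and 3383 for Tgfb3. Such a union can exceed the length of the transcript made, so comparisons between genes depend on it. In mean CPM Tgfb1 stood above Tgfb3 in the controls (17.3 and 14.5) and below it in the knockouts (18.2 and 22.8). Tgfb3 supplied 39.2%, 34.4% and 48.2% of the ligand transcripts in the controls and 58.4%, 47.2% and 56.4% in the knockouts, with control 3 inside the knockouts' range (exact permutation p = 0.2). Tgfb2 supplied 21.0% to 36.7% in the controls and 14.2% to 18.4% in the knockouts, without overlap (exact permutation p = 0.1, the smallest that 3 against 3 allows). The share of Tgfb1 was 29.0% to 38.2% in the controls and 24.0% to 34.4% in the knockouts. These 3 shares add to a whole, so they are not independent.

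**Figure D2:**
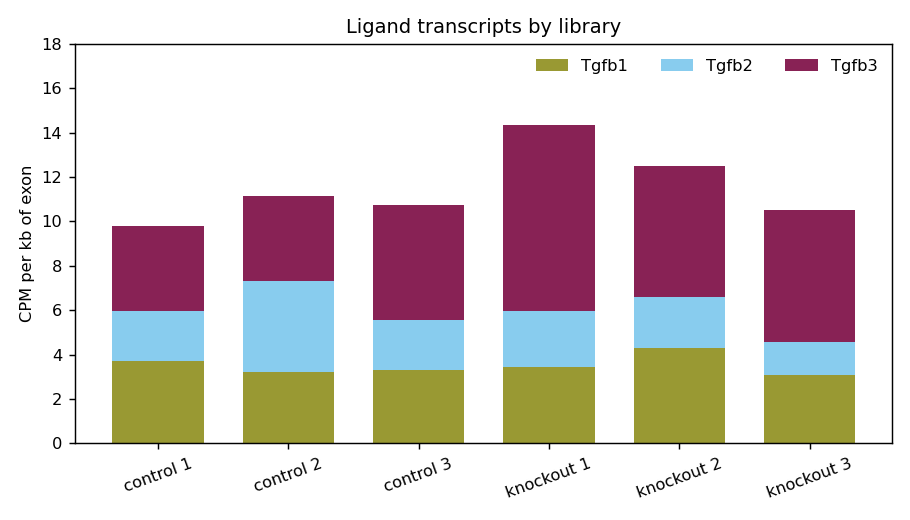
Stacked levels of the ligand genes Tgfb1, Tgfb2 and Tgfb3 in each library, in CPM per kb of exon. The stacks reach 9.78 to 11.2 in the controls and 10.5 to 14.4 in the knockouts, and the Tgfb3 segment is between 3.83 and 5.17 in the controls and between 5.90 and 8.39 in the knockouts.

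Both receptor genes rose. Tgfbr2 (ENSMUSG00000032440, chromosome 9, 116084293 to 116175360, minus strand) encodes the type II receptor, the kinase that binds ligand first. Its values were 56.8, 52.8 and 57.4 CPM in the controls and 117, 114 and 80.3 CPM in the knockouts. The controls lay close together, and all knockouts stood above them with knockout 3 the lowest of the 3. The log2 fold change was 0.90 (SE 0.16), a 1.87-fold rise (edgeR's adjusted p = 0.00539). Tgfbr1 (ENSMUSG00000007613, chromosome 4, 47353222 to 47414931, plus strand) encodes the type I receptor, the kinase that phosphorylates the Smads. Its level was 29.5, 26.4 and 30.3 CPM in the controls and 45.9, 45.3 and 38.9 CPM in the knockouts, again with no overlap and with knockout 3 the lowest of its group. The log2 fold change was 0.59 (SE 0.12), a 1.51-fold rise (edgeR's adjusted p = 0.00828). Both receptors were called in all 14 alternatives. On the per-kilobase scale the ratio of Tgfbr2 to Tgfbr1 was 1.54, 1.59 and 1.51 in the controls and 2.04, 2.01 and 1.65 in the knockouts (2-sided exact permutation p = 0.1, the smallest possible), so Tgfbr2 was the more abundant of the pair in every library.

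Since both receptors rose, 250 bases before a RefSeq start of each are shown, from the GRCm38.p6 promoter table. The table held 7 windows for 6 of the 9 genes (Tgfb1, Tgfb2, Tgfbr1, Tgfbr2, Acta2 and Tgfbi) and none for Tgfb3, Smad7 and Pmepa1. Tgfbr1 had 2 windows, and the one shown ends at the start of the gene in GENCODE M21. Capitals mark the GC box, GGGCGG. They also mark the CCAAT box. The core of Smad binding elements, CAGAC, is marked too, and each motif was searched on both strands. The Tgfbr1 stretch is chr4:47352972-47353221 (plus strand) and the Tgfbr2 stretch is chr9:116175364-116175613 (minus strand).
Tgfbr1: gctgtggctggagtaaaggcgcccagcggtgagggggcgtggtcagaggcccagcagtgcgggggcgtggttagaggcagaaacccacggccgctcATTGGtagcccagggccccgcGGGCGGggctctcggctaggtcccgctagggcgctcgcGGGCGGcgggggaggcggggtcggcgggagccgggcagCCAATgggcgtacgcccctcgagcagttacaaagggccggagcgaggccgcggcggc
Tgfbr2: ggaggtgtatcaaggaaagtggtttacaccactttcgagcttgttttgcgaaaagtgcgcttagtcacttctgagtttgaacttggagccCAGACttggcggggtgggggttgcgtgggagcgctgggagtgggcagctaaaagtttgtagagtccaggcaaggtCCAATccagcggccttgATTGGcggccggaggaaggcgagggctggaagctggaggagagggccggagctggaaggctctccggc
Each stretch shown held 2 CCAAT boxes, a feature of 11.7% of 32851 promoter windows of 300 bases. The Tgfbr1 stretch shown also held 2 GC boxes (2 or more in 19.5% of windows) and no CAGAC. The other Tgfbr1 window, at a RefSeq start inside the gene (chromosome 4, 47385966 to 47386265), differed: it held 1 CAGAC, 203 bases before that start, no GC box, and 1 CCAAT box, which lies after the start. The Tgfbr2 stretch held 1 CAGAC, which is present in 49.6% of windows. GC content of the stretches shown was 74.8% for Tgfbr1 and 58.4% for Tgfbr2, beside a median of 52.4% over the same stretch of all windows. A match to a short motif describes the sequence and is no evidence of binding.

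Of the feedback genes Pmepa1 rose and Smad7 was not called. Pmepa1 (ENSMUSG00000038400, chromosome 2, 173224458 to 173276533, minus strand) encodes a membrane protein that binds receptor-activated Smads and limits the signal. Its values were 4.996, 7.15 and 8.65 CPM in the controls and 36.4, 34.3 and 35.1 CPM in the knockouts. The knockouts were tightly grouped, at about the same level in all 3 mice, and stood far above every control. The rise was 5.08-fold (log2 fold change 2.34, SE 0.20, edgeR's adjusted p = 0.000711), ranking 148 by fold of 15513, and it was called in all 14 alternatives. The annotated antisense gene Pmepa1os next to it held at most 2 counts in any library. Smad7 (ENSMUSG00000025880, chromosome 18, 75367529 to 75395935, plus strand) encodes the inhibitory Smad that blocks the type I receptor. Its level was 13.1, 15.3 and 18.6 CPM in the controls and 20.1, 22.0 and 21.5 CPM in the knockouts. The groups did not overlap, but control 3 came near the lowest knockout, and the log2 fold change of 0.44 (SE 0.15) was not called (edgeR's adjusted p = 0.0563). Smad7 was called without control 3 (edgeR's adjusted p = 0.0438), with no filter on low counts (0.0448), with sex as a covariate (0.0433) and with DESeq2 (adjusted p = 0.0391).

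Acta2 showed the highest fold of the 9 genes. Acta2 (ENSMUSG00000035783, chromosome 19, 34241090 to 34255590, minus strand) encodes smooth muscle alpha-actin, the contractile actin of smooth muscle and myofibroblasts and a standard readout of TGF-beta in mesenchymal cells. Its values were 1.16, 1.95 and 1.73 CPM in the controls and 22.3, 19.5 and 12.7 CPM in the knockouts, from 27, 41 and 44 counts and 528, 560 and 350 counts. Each knockout was far above every control, and knockout 3 was the lowest of its group, as it was for both receptors. The rise was 11.2-fold (log2 fold change 3.49, SE 0.29, edgeR's adjusted p = 0.000663), ranking 58 by fold of all genes tested, and it was called in all 14 alternatives, which gave log2 fold changes between 3.30 and 3.70.

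Of 12 other genes that mark smooth muscle and pericytes, 6 were tested, of which 1 rose (Notch3), 2 fell (Synpo2 and Rgs5) and 3 were not called. Over all genes tested 17.4% were called higher and 18.8% lower. Of the 12 markers 8 stayed below 1 CPM in every library, among them the smooth muscle myosin gene Myh11 (0.04 to 0.33 CPM), the calponin gene Cnn1 (0.07 to 0.29 CPM) and the desmin gene Des (0.04 to 0.65 CPM). The enteric actin gene Actg2 held 0 counts in all 3 knockouts and at most 4 in a control. Tagln, the transgelin gene, stood at 1.03 to 2.59 CPM in the controls and 0.30 to 1.16 CPM in the knockouts and was not called (edgeR's adjusted p = 0.111). Synpo2, which encodes an actin-binding protein of muscle, was at 2.24, 4.48 and 5.42 CPM in the controls and 1.65, 0.942 and 0.581 CPM in the knockouts, and fell by 1.94 on the log2 scale (SE 0.46, edgeR's adjusted p = 0.0159). That call was lost without knockout 2 (0.0517). Rgs5, a pericyte marker, was at 0.474 to 0.904 CPM in the controls and 0.140 to 0.296 CPM in the knockouts, and fell by 1.57 (SE 0.44, edgeR's adjusted p = 0.0276). Rgs5 was not called by DESeq2 (0.0578), with sex as a covariate (0.0551) or without control 2, control 3, knockout 1, knockout 2 or knockout 3 (0.0558 to 0.103). In the controls Notch3, Smtn and Synpo2 were each above Acta2 in CPM in every library. Summed over the 12 the level was 125 to 175 CPM in the controls and 165 to 222 CPM in the knockouts, most of it from Notch3, a receptor gene, and Smtn, the smoothelin gene, neither of which is specific to muscle. Without these 2 the remaining 10 summed to 4.78 to 10.7 CPM in the controls and 2.88 to 3.70 CPM in the knockouts, below every control. Notch3 rose by 0.57 on the log2 scale (SE 0.16, edgeR's adjusted p = 0.0290), a call lost without control 1 (0.0706), control 3 (0.0541) or knockout 1 (0.0914), with upper-quartile factors (0.0741) and with the replicate block (0.0626). Endothelial markers summed to 2.63 to 3.62 CPM in the controls and 1.43 to 2.32 CPM in the knockouts. Of 10 tested dermal fibroblast markers none rose and 3 fell, beside 17.4% higher and 18.8% lower over all genes tested. The fibroblast list of 11 summed to 113 to 232 CPM in the controls and 113 to 169 CPM in the knockouts.

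**Figure D3:**
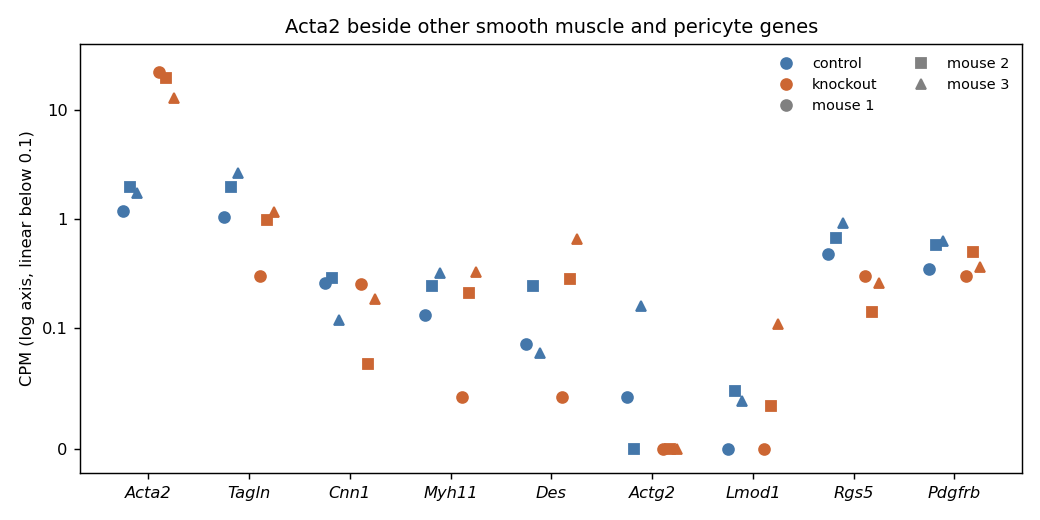
Acta2 beside 8 other genes of smooth muscle and pericytes (CPM on a log axis that is linear below 0.1), with control libraries in blue and knockout libraries in orange. Acta2 is at 12.7 to 22.3 CPM in the knockouts, while no other gene shown exceeds 1.16 CPM there. Notch3, Smtn, Synpo2 and Kcnj8 of the marker list are not drawn. In the knockouts Notch3 (124 to 168 CPM) and Smtn (37.9 to 51.9 CPM) lay above Acta2, and Synpo2 reached 1.65 CPM.

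Actin genes share much of their coding sequence, and how reads that match several genes were counted is not given in the sources used here. None of the other actin genes was called. Actc1 held at most 1 count in any library, and Acta1 stood at 0.60, 2.14 and 0.43 CPM in the controls and 0.30, 1.26 and 3.41 CPM in the knockouts, with overlapping groups. The abundant cytoplasmic actins Actb (1025.4 to 1184.3 CPM in the controls, 1037.5 to 1452.2 in the knockouts) and Actg1 (842 to 1305.1 and 965 to 1274.8 CPM) were not called. Acta2 made up 0.0467% to 0.0925% of the CPM of 6 actin genes in the controls and 0.615% to 1.06% in the knockouts. The nearest annotated gene, Stambpl1, lies 757 bases away on the opposite strand and stood at 5.19 to 5.90 CPM in the controls and 5.17 to 6.90 CPM in the knockouts.

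The Acta2 promoter is known for its CArG boxes, which bind serum response factor. A search of the RefSeq window for a CArG box with at most 1 base other than A or T in its central run, which reads the same on both strands, found 2 matches, 84 and 34 bases before the RefSeq start. They are shown with 10 flanking bases on either side, at chr19:34255438-34255467 and chr19:34255388-34255417 of GRCm38.p6 (minus strand), with the 10-base match in capitals. The GENCODE M21 gene begins farther upstream, at 34255590, so both sites lie inside its annotated span. A TATATAA match, a motif present in 3.24% of windows, began 8 bases after the RefSeq start. Which start was used in these cells was not tested.
Acta2 site 1: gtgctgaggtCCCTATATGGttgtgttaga
Acta2 site 2: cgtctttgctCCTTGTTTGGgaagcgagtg
At least 1 such match was present in 9.98% of all windows and 2 or more in 0.822%. Of the other 5 genes with a window, Tgfbr2 had 1 match, which overlaps a CCAAT box of the sequence shown above, and the other 4 had none.

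Tgfbi (ENSMUSG00000035493, chromosome 13, 56609523 to 56639562, plus strand) encodes a secreted matrix protein that binds integrins and collagens. It was the most abundant of the 9 on the per-kilobase scale in every library. Its level was 519, 465 and 275 CPM in the controls and 793, 854 and 493 CPM in the knockouts. Replicate 3 was the lowest library of each group, and knockout 3 lay inside the range of the controls. The log2 fold change of 0.77 (SE 0.29) was not called (edgeR's adjusted p = 0.0749). Omitting knockout 3 gave a call for Tgfbi (edgeR's adjusted p = 0.0324), as did the replicate block (0.0165) and DESeq2 (adjusted p = 0.0188).

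The order of the 9 genes by level per kilobase, which depends on the exon lengths used, changed between the groups. In the controls Tgfbi (111 ± 34.0 CPM per kb, SD, n = 3) was followed by Tgfbr2 (6.80 ± 0.301), then by Tgfbr1, Tgfb3, Smad7, Tgfb1 and Tgfb2, between 4.40 and 2.85, and by Pmepa1 (1.41 ± 0.374) and Acta2 (0.736 ± 0.186). Each neighbouring pair from Tgfbr1 to Tgfb2 overlapped between libraries, while Pmepa1 and Acta2 were each separate from the genes above them. In the knockouts Acta2 (8.28 ± 2.26) and Pmepa1 (7.17 ± 0.214) came next after Tgfbi (189 ± 51.3) and Tgfbr2 (12.7 ± 2.51). Acta2 overlapped Tgfbr2 and Pmepa1, and Pmepa1 overlapped Tgfb3 (6.74 ± 1.42) and Tgfbr1 (6.64 ± 0.592). Smad7 (4.69 ± 0.221), Tgfb1 (3.62 ± 0.618) and Tgfb2 (2.11 ± 0.544) followed in that order without overlap between neighbours.

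Of 13 genes listed under latency and activation 3 rose, none fell and 10 were not called, beside 17.4% higher and 18.8% lower over all genes tested. The list's median log2 fold change was 0.35. It includes family members by name, so a place in it does not mean that a gene's product binds or releases the ligand. Ltbp2, a latent TGF-beta binding protein family member that associates with elastic fibres, stood at 28.6, 36.6 and 28.8 CPM in the controls and 180, 94.6 and 106 CPM in the knockouts. All knockouts were above all controls, with a 4.05-fold rise (log2 fold change 2.02, SE 0.25, edgeR's adjusted p = 0.00216). Itgb6 encodes the beta chain of the epithelial integrin that activates latent TGF-beta, and was at 8.27, 9.86 and 11.01 CPM in the controls and 22.7, 17.9 and 20.1 CPM in the knockouts. It rose 2.08-fold (log2 fold change 1.06, SE 0.16, edgeR's adjusted p = 0.00378). Furin, which encodes the protease that cleaves the propeptide, rose by 0.91 on the log2 scale (SE 0.16). Ltbp2, Itgb6 and Furin were called in all 14 alternatives. Thrombospondin 1 (Thbs1), another activator, varied within the controls from 129 to 563 CPM and was not called (edgeR's adjusted p = 0.327). The count of genes that fell in this list became 1 with no filter on low counts, with DESeq2, with the replicate block and without control 1.

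Of 8 accessory receptor genes 2 rose, 1 fell and 5 were not called, a share near the 36.2% called over all genes tested, with a median of 0.17. Tgfbrap1, whose product associates with the receptors, went up from 39.3 ± 1.52 to 55.8 ± 3.22 CPM (log2 change 0.51, SE 0.10, edgeR's adjusted p = 0.00853). Vasn, vasorin, a membrane protein that binds the ligands, rose from 9.16 ± 2.21 to 18.4 ± 6.41 CPM (1.00, SE 0.28, edgeR's adjusted p = 0.0275). The Vasn call did not survive omission of control 2 (edgeR's adjusted p = 0.0728), control 3 (0.0832), knockout 1 (0.0621) or knockout 2 (0.0757). Eng, endoglin, a co-receptor of endothelium, fell from 1.55 ± 0.345 to 0.404 ± 0.204 CPM (-1.91, SE 0.42). Of the 7 endothelial markers, Pecam1 stood at 1.54 ± 0.235 CPM in the controls and 0.801 ± 0.332 in the knockouts and was not called. The other 6 stayed below 1 CPM in every library. Only 1 accessory receptor gene rose when control 2, control 3, knockout 1 or knockout 2 was omitted, and 4 rose when knockout 3 was. When knockout 2 was omitted, 2 accessory receptor genes fell.

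The Smads that carry the signal were not called. Smad2 stood at 52.8 ± 5.54 CPM in the controls and 56.9 ± 2.46 in the knockouts, Smad3 at 16.7 ± 2.32 and 17.98 ± 0.357, and Smad4 at 67.8 ± 3.996 and 82.8 ± 11.7 CPM. Of the 7 tested genes in the list of transducers and cofactors 2 rose, none fell and 5 were not called, beside 36.2% called over all genes tested, with a median of 0.11; the eighth, Foxh1, was not tested, with at most 0.07 CPM in any library. Zfyve9, which encodes the anchor protein SARA that presents Smads to the receptor, rose from 54.1 ± 4.93 to 91.1 ± 7.01 CPM (0.75, SE 0.12, edgeR's adjusted p = 0.00378). Trim33, which encodes a ubiquitin ligase acting on Smad4, rose by 0.38 (SE 0.10, edgeR's adjusted p = 0.0231). The Trim33 call was lost with upper-quartile factors (0.0920) and without control 1 (0.0505), control 2 (0.0521), control 3 (0.0844), knockout 1 (0.0605) or knockout 2 (0.0705), so that 1 gene of the list then rose.

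Of 10 feedback and inhibitor genes 6 rose, 1 fell and 3 were not called, beside 17.4% higher and 18.8% lower over all genes tested, with a median of 0.38. The number that rose was 3 with upper-quartile factors, without knockout 1 and without knockout 2, and 4 with the replicate block, without control 2 and without control 3. Smurf1, a ubiquitin ligase that works with Smad7 to remove the receptor, was at 36.5, 41.9 and 37.3 CPM in the controls and 87.95, 90.2 and 74.5 CPM in the knockouts. It rose 2.19-fold (log2 fold change 1.13, SE 0.12, edgeR's adjusted p = 0.00136), with no overlap of the groups. Ski, a Smad corepressor, was at 89.0, 108 and 98.8 CPM in the controls and 165, 160 and 135 CPM in the knockouts, a 1.55-fold rise (0.64, SE 0.13, edgeR's adjusted p = 0.00878). The others that rose were the related corepressor Skil (0.68, SE 0.14) and, with calls that 5, 5 and 7 of 14 alternatives did not make, Smad6 (1.21, SE 0.36), Smurf2 (0.41, SE 0.10) and Ppm1a (0.35, SE 0.11). Dcn, decorin, a matrix proteoglycan that binds TGF-beta and a fibroblast marker, fell from 7.34 ± 1.25 to 2.42 ± 0.510 CPM (-1.597, SE 0.24, edgeR's adjusted p = 0.00376).

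Of 14 tested genes known to respond in epithelial cells 5 rose, 2 fell and 7 were not called, beside 17.4% higher and 18.8% lower over all genes tested, with a median of 0.43. Itga5, the alpha chain of the fibronectin receptor, was at 5.73, 10.8 and 7.11 CPM in the controls and 22.0, 19.3 and 15.1 CPM in the knockouts (2.39-fold, 1.26, SE 0.25, edgeR's adjusted p = 0.00915). Knockout 3 was the lowest of its group for Itga5 and still above the controls. The cell cycle inhibitor genes Cdkn1a (0.74, SE 0.16) and Cdkn2b (0.69, SE 0.23, edgeR's adjusted p = 0.0487) and the parathyroid hormone-like gene Pthlh (0.73, SE 0.24, edgeR's adjusted p = 0.0448) also rose, but Cdkn2b and Pthlh were each not called in 7 of 14 alternatives. Angptl4, which encodes an inhibitor of lipoprotein lipase, moved the other way, from 24.7, 40.1 and 17.9 CPM to 2.11, 2.83 and 4.43 CPM. This was an 8.78-fold fall (-3.13, SE 0.37, edgeR's adjusted p = 0.00188). Tgm2, tissue transglutaminase, fell from 3.22 ± 0.361 to 1.17 ± 0.0348 CPM (-1.46, SE 0.24). Of these genes 3 rose with upper-quartile factors, and likewise without control 1, knockout 1 or knockout 3.

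Apart from Acta2, which is described above and was not in the list, none of 13 tested mesenchymal and matrix response genes rose. In that list 1 fell and 12 were not called, beside 36.2% called over all genes tested, with a median of -0.47, and of all 16 the calponin, lysyl oxidase and N-cadherin genes Cnn1, Lox and Cdh2 stayed below 1 CPM in every library. Vim, vimentin, was at 202, 134 and 217 CPM in the controls and 79.6, 114 and 103 CPM in the knockouts, without overlap (-0.90, SE 0.21, edgeR's adjusted p = 0.0148). That call was lost without knockout 1 (0.0538). Vimentin is also made by T cells and melanocytes, whose markers fell in the same libraries as given above, and their part in this value was not tested. Fn1, fibronectin, was at 23.1 to 26.6 CPM in the controls, at 68.2 and 65.6 CPM in knockouts 1 and 2 and at 21.4 CPM in knockout 3, below every control, and was not called (edgeR's adjusted p = 0.0696). The collagen genes Col1a1, Col1a2 and Col3a1 overlapped between the groups. The number that rose was 2 with DESeq2 or without knockout 3 and 1 with no filter, and the number that fell was 2 to 3 in 5 alternatives and 4 without control 1.

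**Figure D4:**
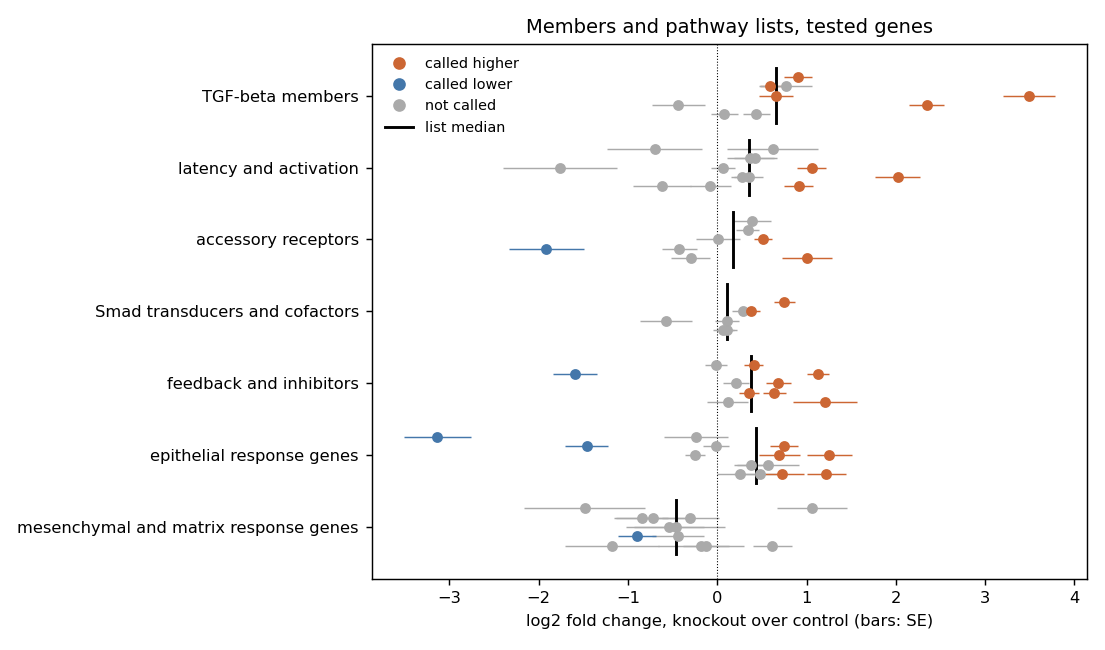
Log2 fold change, knockout over control, of every tested gene of the 9 members (top row) and of 6 pathway lists, with SE bars, orange for genes called higher, blue for genes called lower and grey for genes not called; black bars mark list medians. Acta2 (3.49) and Pmepa1 (2.34) are the rightmost points of all lists shown, and the median is below 0 only in the mesenchymal and matrix list (-0.47).

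The genes whose pattern over the 6 libraries most resembled that of each member were sought by Pearson correlation of log2 CPM. The search covered 10687 tested genes of at least 5 CPM. Such a correlation disregards the size of a change. The 2 nearest to Acta2 were Ephb2, an ephrin receptor gene (r = 0.999), and Spire1, an actin nucleation gene (r = 0.999). They changed by 1.28 and 1.12 on the log2 scale, beside 3.49 for Acta2. Those nearest to Pmepa1 were Ttpal (r = 0.9996) and Dpp9, a dipeptidyl peptidase gene (r = 0.999). Ttpal changed by 0.93 and Dpp9 by 0.21 on the log2 scale, beside 2.34 for Pmepa1, and Dpp9 was not called. For Tgfbr2 they were Fbxo34 and Tor1aip1, and for Tgfbr1 they were P2ry4 and Pros1. Tgfbi was nearest to Rab3d (r = 0.998) and Lamb3 (r = 0.997), the beta chain of laminin 332. The nearest to Tgfb1 was Cttnbp2 (r = 0.986), to Tgfb2 Mrps5 (r = 0.979), to Tgfb3 Dglucy (r = 0.991) and to Smad7 Nfat5 (r = 0.992). These are the highest of many correlations over 6 libraries that share 1 group difference, and they describe these libraries only.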

How the data were processed

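The authors deposited whole-number counts per gene for the 6 libraries. The submitters' processing notes list GRCm38, featureCounts 1.4.6, TopHat 1.3.3 and Cuffdiff 1.3.0; the order of steps, annotation, strand setting and treatment of multiply matching reads are not given in the sources used here. Symbols came from GENCODE M21 and matched 44585 of 45513 identifiers. Total counts of 20126395 to 28473479 per library set the precision of low values.

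Counts were tested with edgeR 4.0.16 (R 4.3.3): TMM factors, filterByExpr, robust quasi-likelihood fits, group as the only term, all 6 libraries, and Benjamini-Hochberg adjustment over 15513 genes. The fit was also run on simulated data in which 200 genes were changed. In the data 5612 genes were called, so that run does not test the scaling under so wide a change. CPM are counts scaled to the TMM-adjusted library size, and CPM per kb divides them by the union of annotated exons. SE is the log2 fold change over the root of its F statistic. Means are given ± SD. Single values were compared by a 2-sided exact permutation test. Alternatives used DESeq2 1.42.0, limma-voom 3.58.1, other scalings and filters, the replicate block, sex, and each library left out.

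The members and lists were chosen with earlier results of these data known. Named were all members, Lama3, the 2 called genes of smallest p per list and direction, the 2 most abundant of each marker list, and the 2 genes most like each member. Genes beyond these, such as Furin, Skil, Cdkn1a, Thbs1, Fn1 and the actins, and the marker sums without their 2 most abundant genes were chosen after their values were seen. Some genes of the lists are counted but not reported here by name.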

Additional observations from a re-analysis of the deposited data

How the results depend on the processing

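Across 8 alternatives and 6 fits that each leave out 1 library, Acta2, Pmepa1, Tgfbr1 and Tgfbr2 kept their direction and call. Of the 9 genes the number called higher lay between 4 and 7 and none was called lower. Tgfb1, which was not called, had a log2 fold change of -0.0704 under upper-quartile scaling, -0.0112 when sex was a covariate, and from -0.0578 (without knockout 2) to 0.1882 (without knockout 3) with 1 library left out. Upper-quartile factors shifted the median over all genes by -0.15 on the log2 scale. They gave 1756 genes higher and 3988 lower, so that 30.6% of the calls were higher against 48.0% with TMM (2693 and 2919), and left 1 Smad transducer or cofactor, 3 feedback genes and 3 epithelial response genes called higher and 2 mesenchymal genes called lower. With no filter, 1 latency gene fell, 1 mesenchymal gene rose and 2 fell. With DESeq2, 1 latency gene fell, 2 mesenchymal genes rose and 2 fell, and limma-voom called 2 mesenchymal genes lower. The replicate block left 2422 genes higher and 2701 lower, with 1 latency gene and 3 mesenchymal genes lower. Same-numbered libraries had correlations of deviations of -0.11, -0.10 and 0.42, the last being the highest of all control and knockout pairs. Control 1 with knockout 2, a pair of different numbers, was close to it at 0.41. The labels give no pairing by number, and these correlations cannot settle whether there was one. Leaving out 1 library gave 1586 to 2754 genes higher and 1714 to 2771 lower over all genes, and for genes called higher 1 to 4 accessory receptors, 1 to 2 transducers, 3 to 6 feedback genes, 3 to 4 epithelial and 0 to 2 mesenchymal genes. For genes called lower it gave 0 to 1 latency genes, 1 to 2 accessory receptors and 1 to 4 mesenchymal genes. The cause of these shifts was not tested.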

Other observations

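Markers of the remaining cell types, given by the CPM summed over each list, are set out as values only. Macrophage markers summed to 27.4 to 60.6 CPM in the controls and 40.1 to 59.8 CPM in the knockouts, with C1qa, C1qb and Cd14 called higher. Langerhans cell markers summed to 509 to 1352 CPM in the controls and 538 to 702 CPM in the knockouts, with Mfge8 called higher and Cd207 (langerin) called lower. Melanocyte markers summed to 50.2 to 179 CPM in the controls and 11.04 to 21.3 CPM in the knockouts. The neutrophil list summed to 0.388 to 1.93 CPM in the controls and 9.21 to 31.8 CPM in the knockouts; Cxcr2 was the only one of its 6 genes tested, and the other 4 genes besides Cxcr2 and Camp summed to at most 0.145 CPM in any library. Hair shaft and inner root sheath markers summed to 360 to 555 CPM in the controls and 161 to 219 CPM in the knockouts. Markers of the follicle bulge and outer root sheath summed to 3626 to 6199.8 CPM in the controls and 2279 to 3475 CPM in the knockouts, with Krt75 and Nfatc1 called higher and Krt15 called lower. Interfollicular keratinocyte markers summed to 23143 to 29822 CPM in the controls and 37019 to 55278 CPM in the knockouts, with Krt1, Krt10 and Dsg3 called higher. These genes outside the rule for named genes were chosen after their values were seen.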
